A study of Mus musculus with 12 samples.

Results

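The guanylate-binding proteins (GBPs) and the immunity-related GTPases (IRGs) are interferon-induced GTPases, and 10 mouse genes of these families were followed in the striatum after ischemic stroke: Gbp2, Gbp3, Gbp4, Gbp5, Gbp6, Gbp7, Irgm1, Irgm2, Igtp and Iigp1. They were taken by symbol, each matching 1 Ensembl ID, from 54532 genes counted by polyA+ RNA sequencing. All 10 were among the 19822 genes with enough counts to be tested. The 12 libraries fell into 6 groups of 2, and every mouse was of the C57BL/6J strain and had an ischemic stroke, so there was no uninjured group. The groups were cGAS-KO, STING-KO and WT at 14 days, and cGAS-KO, STING-KO and WT at 7 days. The knockout lines lacked Cgas or Sting by CRISPR-Cas9 editing, and neither the age of the mice nor the number of mice behind a library is given in the labels. The p-values therefore measure only the spread between these libraries, which may be technical.

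Interferons induce both families. Promoters that respond to interferon-gamma often carry gamma-activated sites (GAS), and those that respond to type I interferons often carry interferon-stimulated response elements (ISRE). In mouse cells the GTPases assemble on vacuoles that hold intracellular pathogens, where the IRGs Irgm1, Irgm2 and Igtp act as regulators on the cell's own membranes and Iigp1 acts as an effector that loads onto the vacuole. GBPs of the mouse also promote inflammasome activation by bacterial products. The enzyme cGAS detects DNA in the cytosol, and the second messenger it makes acts through STING to induce type I interferon.

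Library totals ran from 15956242 to 22126213 counts, and 3 counts in a library corresponded to 0.133 to 0.195 CPM, the counts scaled to a common library size. Levels of the edited genes went against the labels in places, so genotype names stand for labels here. At 14 days Cgas had 4.09 and 6.14 CPM under the cGAS-KO label, against 12.5 and 7.68 CPM under WT, and at 7 days it had 5.54 and 5.65 CPM under cGAS-KO, against 3.25 and 2.96 CPM under WT. Tmem173, which encodes STING, had 2.40 and 5.21 CPM at 14 days under the STING-KO label, against 22.2 and 20.8 CPM under WT, but at 7 days it had 20.9 and 23.8 CPM under STING-KO, against 2.80 and 2.71 CPM under WT. A small edit can leave a transcript in place, so its level need not show the genotype. Whether labels of whole groups were exchanged was not tested, and an exchange would change what every contrast with the affected groups means. Since 7-day WT and 14-day STING-KO were the groups low in Tmem173, the contrasts that use neither were also fitted without them. Neuronal markers also differed: 8 markers of striatal projection neurons summed to 1172 and 2040 CPM in 14-day cGAS-KO, 4057 and 4277 CPM in 14-day STING-KO and 516 to 660 CPM in 14-day WT, against 112 to 384 CPM in the 7-day knockouts and 106 to 118 CPM in 7-day WT. Those of cortical and hippocampal excitatory neurons summed to 1889 and 2205 CPM in 7-day WT and to 639 CPM at most in the other 10 libraries. What these differences contribute to the GTPase values was not tested.

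The upstream sequences of the GTPase genes are shown first, because their transcripts moved together and 2 short patterns of interferon-responsive promoters can be read in them. RefSeq promoter windows on GRCm38.p6, running from 250 bases before to 50 after the transcription start, were at hand for 7 of the genes in 8 windows (2 for Gbp3), with Gbp4, Gbp6 and Iigp1 not in the table. The patterns were the core of an ISRE, which is GAAA, any 2 bases and GAAA again, and the GAS palindrome TTCNNNGAA, each sought on both strands. Matches of the 2 patterns did not overlap each other. The ISRE core was present upstream of all 7 genes and in 7 of the 8 windows, against 3.44% of all 32851 windows. TTCNNNGAA was present upstream of 4 genes, Gbp5, Gbp7, Irgm2 and Igtp, against 8.3% of all windows. Both stood together in those 4 windows, against 0.454% of all windows. The patterns were not particular to these genes. Of 9 windows of other GBP, IRG and very large inducible GTPases, 5 held the ISRE core, 3 held TTCNNNGAA and 3 held both. In the stretches of 150 bases below, written 5′ to 3′ in the direction of transcription, capitals mark the matches; an ISRE core on the opposite strand reads as TTTC, 2 bases and TTTC. They are Gbp5 at chr3:142496750-142496899, Gbp7 at chr3:142530186-142530335 and Gbp3 at chr3:142559876-142560025, all on the plus strand, then Igtp at chr11:58199406-58199555 and Irgm2 at chr11:58214827-58214976 on the plus strand and Irgm1 at chr11:48871421-48871570 on the minus strand.
Gbp5: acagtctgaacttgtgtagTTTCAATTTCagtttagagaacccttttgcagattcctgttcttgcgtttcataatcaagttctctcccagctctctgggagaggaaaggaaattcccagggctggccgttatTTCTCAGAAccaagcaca
Gbp7: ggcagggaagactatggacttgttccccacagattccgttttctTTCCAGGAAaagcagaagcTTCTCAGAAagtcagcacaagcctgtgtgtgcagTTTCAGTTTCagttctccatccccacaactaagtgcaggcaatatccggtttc
Gbp3: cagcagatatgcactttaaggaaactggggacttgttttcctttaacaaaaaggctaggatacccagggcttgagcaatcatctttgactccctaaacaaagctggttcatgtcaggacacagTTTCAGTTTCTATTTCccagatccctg
Igtp: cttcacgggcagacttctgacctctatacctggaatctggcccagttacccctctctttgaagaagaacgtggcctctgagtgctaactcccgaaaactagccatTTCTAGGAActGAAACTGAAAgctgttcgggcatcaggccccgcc
Irgm2: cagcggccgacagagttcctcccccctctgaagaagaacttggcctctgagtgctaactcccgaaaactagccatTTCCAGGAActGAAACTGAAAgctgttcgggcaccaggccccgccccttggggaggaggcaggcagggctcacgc
Irgm1: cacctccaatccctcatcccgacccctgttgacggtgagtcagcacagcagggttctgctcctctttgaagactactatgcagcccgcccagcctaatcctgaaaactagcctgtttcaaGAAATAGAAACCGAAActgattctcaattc

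Igtp and Irgm2 carried the 2 patterns in the same order and spacing. The GAS pattern began 45 bases before the start of Igtp and the ISRE core 34 bases before it, and in Irgm2 they began at 75 and 64 bases. Irgm1 and Gbp3 had no GAS match but 2 overlapping ISRE cores, seen above as a run of capitals longer than 1 match. Those of Irgm1 began 30 and 24 bases before its start, and those of Gbp3 began 45 and 39 bases before. Gbp7 had 2 GAS matches upstream of an ISRE core on the opposite strand that began at 53 bases. Gbp5 held a GAS match beginning at 52 bases, an ISRE core on the opposite strand at 165 bases and another GAS match at 245 bases, outside the stretch shown. Gbp2, not shown, had 1 ISRE core on the opposite strand, from 59 to 50 bases before its start. The RefSeq starts of Gbp2, Gbp3, Gbp5, Irgm1 and Irgm2 used here lie inside the bounds of these genes in the annotation used next. That annotation places their starts further upstream. The matches of Gbp2, Gbp5, Irgm1 and Irgm2 therefore lie inside those gene bounds, upstream of the RefSeq start only. A match describes letters in a window and does not show that a factor binds there.

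**Figure D1:**
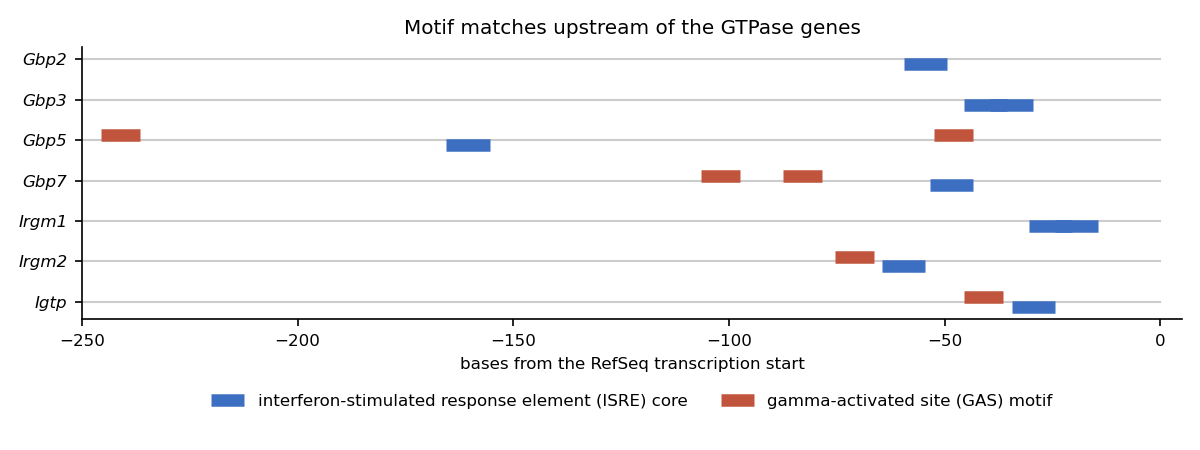
Positions of ISRE core matches (blue) and GAS matches (red) in the 250 bases upstream of 7 GTPase genes, 1 row per gene, with the distance from the RefSeq transcription start in bases on the horizontal axis. All 7 rows hold an ISRE core, and those of Gbp5, Gbp7, Irgm2 and Igtp also hold a GAS match.

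In mm10 with GENCODE M21 annotation, the genes lie in clusters of their families. Gbp5 (ENSMUSG00000105504), Gbp7 (ENSMUSG00000040253), Gbp3 (ENSMUSG00000028268) and Gbp2 (ENSMUSG00000028270) follow each other on the plus strand of chromosome 3 between 142493978 and 142638008. Gbp4 (ENSMUSG00000079363, 105115767 to 105139586) and Gbp6 (ENSMUSG00000104713, 105270702 to 105293698) lie on the minus strand of chromosome 5. Irgm1 (ENSMUSG00000046879) is on the minus strand of chromosome 11 at 48861968 to 48871683. Igtp (ENSMUSG00000078853, 58199556 to 58207591) and Irgm2 (ENSMUSG00000069874, 58199618 to 58222782) overlap on its plus strand, and Iigp1 (ENSMUSG00000054072) is on chromosome 18 at 60376027 to 60392634. Igtp shared 162 exonic bases with Irgm2, and 0.739% of its 150-base stretches, the read length, occurred in Irgm2 transcripts. Gbp6 is the uncertain one: 76.5% of its 150-base stretches also occurred in Gm43302, an annotated gene that overlaps it and had 0 counts in all 12 libraries, so Gbp6 reads may be under-counted. For Gbp7, 8.77% were shared with Gm43802, and Gbp2, Gbp3, Gbp5, Irgm1 and Iigp1 shared none at this length.

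Across the 6 groups the 10 transcripts held nearly the same order. Mean CPM was highest in 14-day WT for 10 of 10 genes and lowest in 7-day WT for 10 of 10. The 14-day cGAS-KO libraries came second for 9 genes, and the 14-day STING-KO libraries came next to lowest for 9. Neighbours in this order did not always differ beyond their spread. Both libraries of the highest group lay above both of the next for 5 genes. Both of the second lay above the third for 4, and both of the third above the fourth for 4. Both of the fourth lay above the next to lowest for 7, and both of that group above the lowest for 8. Neither the ranks nor these gaps were counted over all genes tested, so they describe the 10 genes only. Summed over the 10 genes, the libraries held 168 and 307 CPM in 14-day cGAS-KO, 49.3 and 94.9 CPM in 14-day STING-KO and 525 and 323 CPM in 14-day WT. At 7 days the sums were 182 and 153 CPM in cGAS-KO, 107 and 158 CPM in STING-KO and 35.4 and 27.8 CPM in WT. Per kilobase of merged exons, which allows genes to be compared, Gbp3 led in 14-day WT with 19.7 ± 9.8 CPM per kilobase (SD, n = 2), Igtp followed with 18.9 ± 6.7 and Gbp2 with 17.5 ± 4.9, all within their spread. Gbp6 was lowest there at 2.37 ± 0.998 CPM per kilobase.

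**Figure D2:**
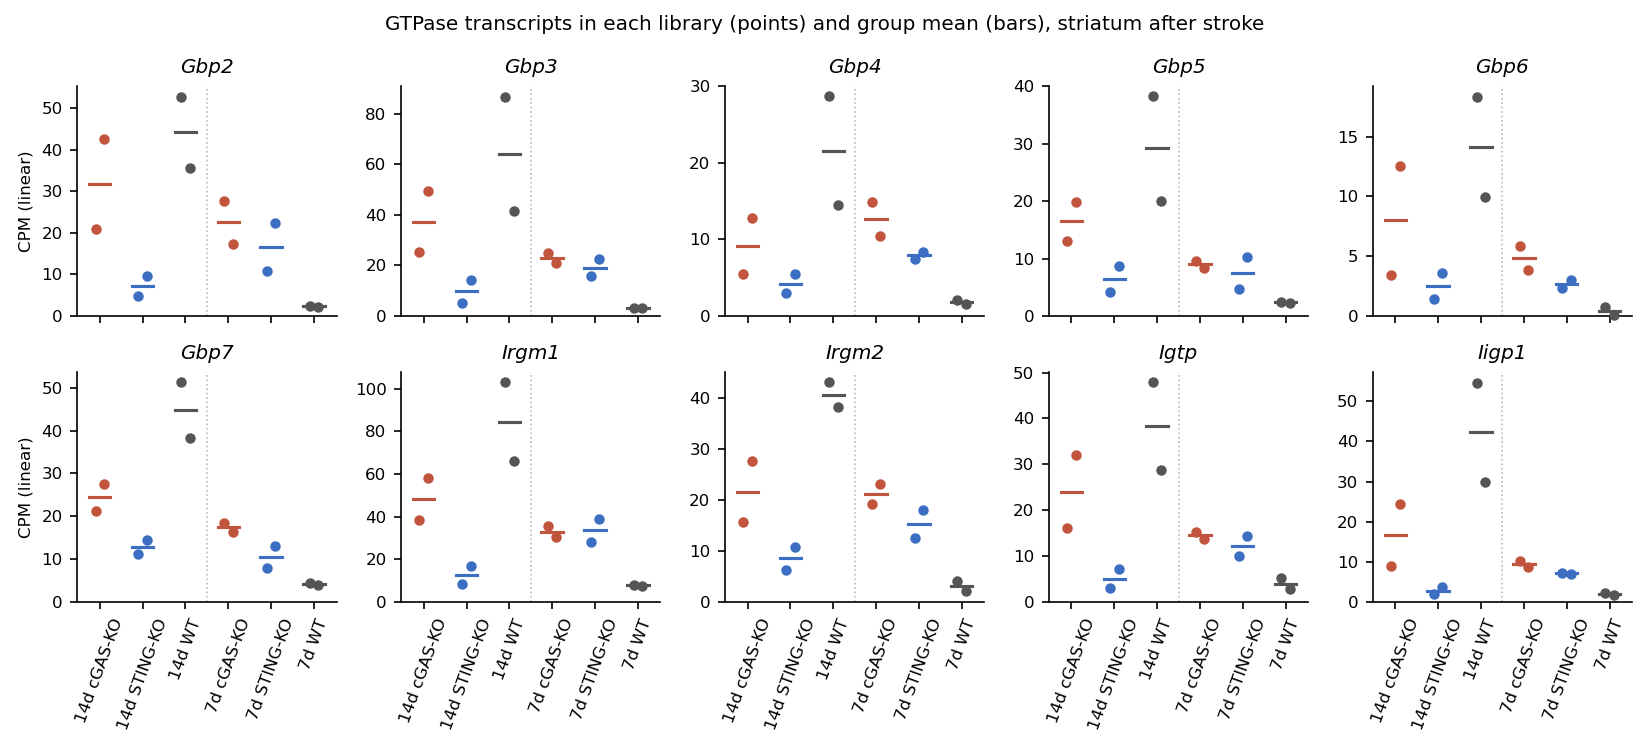
CPM (vertical axes, linear and different between panels) of the 10 GTPase genes in each library (points) and as group mean (bars) for cGAS-KO (red), STING-KO (blue) and WT (grey) at 14 and 7 days. In each panel the 14-day WT mean is the highest and the 7-day WT mean the lowest, and the 2 libraries of the 14-day groups spread widely.

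Among the regulators of the IRG system, Irgm1, which acts on Golgi and lysosomal membranes and in mice is needed for resistance to mycobacteria, had 38.3 and 58.2 CPM in 14-day cGAS-KO, 8.21 and 17.0 CPM in 14-day STING-KO and 103 and 66.0 CPM in 14-day WT. It had 35.7 and 30.4 CPM in 7-day cGAS-KO, 28.3 and 39.1 CPM in 7-day STING-KO and 8.18 and 7.51 CPM in 7-day WT. The 3 genotypes did not overlap at 14 days, while at 7 days the knockouts overlapped each other and both lay above WT. Irgm2, a regulator on the Golgi, had 15.7 and 27.6 CPM in 14-day cGAS-KO, 6.29 and 10.9 CPM in 14-day STING-KO and 43.1 and 38.2 CPM in 14-day WT. In the 7-day libraries it had 19.2 and 23.1 CPM in cGAS-KO, 12.5 and 18.0 CPM in STING-KO and 4.15 and 2.25 CPM in WT. No 2 genotypes of the same day overlapped for Irgm2. Igtp, a regulator of the endoplasmic reticulum also called Irgm3, had 16.1 and 32.0 CPM in 14-day cGAS-KO, 2.997 and 7.22 CPM in 14-day STING-KO and 47.9 and 28.7 CPM in 14-day WT. Its 7-day values were 15.2 and 13.8 CPM in cGAS-KO, 9.97 and 14.3 CPM in STING-KO and 5.21 and 2.76 CPM in WT. For Igtp the cGAS-KO and WT libraries overlapped at 14 days, and the 14-day STING-KO libraries reached down into the range of 7-day WT.

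Iigp1 is the effector among the IRGs followed here. At 14 days it had 9.03 and 24.5 CPM in cGAS-KO, 1.98 and 3.71 CPM in STING-KO and 54.6 and 30.0 CPM in WT. The 7-day libraries held 10.1 and 8.79 CPM in cGAS-KO, 7.28 and 7.09 CPM in STING-KO and 2.19 and 1.84 CPM in WT. Genotypes of the same day did not overlap on either day, and the lower 14-day STING-KO library lay within the 7-day WT range.

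Among the GBPs of chromosome 3, a cluster that mice need for the interferon-gamma control of Toxoplasma, Gbp2 had 20.9 and 42.5 CPM in 14-day cGAS-KO, 4.74 and 9.56 CPM in 14-day STING-KO and 52.8 and 35.5 CPM in 14-day WT. At 7 days Gbp2, which carries a lipid anchor at its end, had 27.7 and 17.3 CPM in cGAS-KO, 10.9 and 22.3 CPM in STING-KO and 2.52 and 2.20 CPM in WT. The cGAS-KO libraries overlapped WT at 14 days and STING-KO at 7 days. Gbp3 had 25.2 and 49.5 CPM in 14-day cGAS-KO, 5.33 and 14.2 CPM in 14-day STING-KO and 86.9 and 41.7 CPM in 14-day WT. At 7 days Gbp3 stood at 24.9 and 21.1 CPM in cGAS-KO, 15.6 and 22.5 CPM in STING-KO and 3.31 and 3.27 CPM in WT. Its groups overlapped in the same places as those of Gbp2. Gbp5, linked in mice to NLRP3 inflammasome assembly, had 13.1 and 19.9 CPM in 14-day cGAS-KO, 4.20 and 8.78 CPM in 14-day STING-KO and 38.3 and 20.1 CPM in 14-day WT. Its 7-day libraries had 9.58 and 8.38 CPM in cGAS-KO, 4.76 and 10.2 CPM in STING-KO and 2.47 and 2.35 CPM in WT. The higher cGAS-KO and the lower WT library nearly met at 14 days. Gbp7, linked in mice to assembly of the phagocyte oxidase, had 21.2 and 27.6 CPM in 14-day cGAS-KO, 11.1 and 14.5 CPM in 14-day STING-KO and 51.3 and 38.3 CPM in 14-day WT. Over the 7-day libraries Gbp7 had 18.5 and 16.4 CPM in cGAS-KO, 7.85 and 12.96 CPM in STING-KO and 4.48 and 3.93 CPM in WT. Gbp7 was apart between all genotypes on both days.

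Of the chromosome 5 GBPs, Gbp6 had the lowest mean per kilobase in 5 of the 6 groups and Gbp4 in 14-day cGAS-KO. Gbp4 had 5.469 and 12.8 CPM in 14-day cGAS-KO, 2.997 and 5.465 CPM in 14-day STING-KO and 28.7 and 14.4 CPM in 14-day WT. It had 14.9 and 10.5 CPM in 7-day cGAS-KO, 7.45 and 8.36 CPM in 7-day STING-KO and 2.13 and 1.58 CPM in 7-day WT. The 14-day knockouts met within 0.01 CPM. Gbp6 had 3.42 and 12.6 CPM in 14-day cGAS-KO, 1.44 and 3.58 CPM in 14-day STING-KO and 18.3 and 9.92 CPM in 14-day WT, so that cGAS-KO overlapped both others. Gbp6 had 5.84 and 3.86 CPM in 7-day cGAS-KO, 2.35 and 3.02 CPM in 7-day STING-KO and 0.728 and 0.102 CPM in 7-day WT. The last value rests on 2 counts and the one before it on 13, so changes of Gbp6 against 7-day WT carry a large error.

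The 14-day STING-KO libraries held the GTPase transcripts at a low level, from regulators to GBPs. All 10 genes fell in STING-KO against WT at 14 days, where 17.4% of all genes tested were called lower, with a median log2 change of -2.57 for the 10 genes and -0.04 for all genes tested. Iigp1 changed most (-3.90 ± 0.50, adjusted p = 0.000251), followed by Igtp (-2.91 ± 0.47, adjusted p = 0.000884), Irgm1 (-2.75 ± 0.35, adjusted p = 0.000243) and Gbp3 (-2.72 ± 0.48, adjusted p = 0.00152). Gbp7 changed least (-1.81 ± 0.26, adjusted p = 0.000366), all by the edgeR quasi-likelihood test, with p-values adjusted by Benjamini and Hochberg's method over all genes tested. The 2 libraries of each group did not overlap for any of the 10 genes, as they did not for 33% of all genes tested in this direction. Gbp6 (-2.50 ± 0.64, adjusted p = 0.0114) no longer passed without STING-KO replicate 1 or without WT replicate 1, with adjusted p of 0.111 at most. Other cell markers moved with this comparison. The 8 microglia markers all fell, summing to 526 and 1009 CPM in STING-KO and 2311 and 2537 CPM in WT, and 6 of 8 monocyte and macrophage markers fell, summing to 30.45 and 98.7 CPM in STING-KO and 608 and 924 CPM in WT, with none of the 16 at 0. Of 10 tested T and NK cell markers 9 fell and 1 rose, Cd4, named after its values were seen, and 9 of the 12 listed were at 0 in STING-KO replicate 1. The 12 summed to 29.3 and 45.1 CPM in STING-KO, mostly Cd4 with 28.95 and 40.6 CPM, against 34.0 and 28.2 CPM in WT. All 8 striatal projection neuron markers rose, while 6 of 8 cortical and hippocampal, 6 of 8 astrocyte, 3 of 8 endothelial and 3 of 4 neutrophil markers fell. What these markers contribute was not tested, and in bulk tissue fewer cells of a type and less RNA per cell cannot be told apart.

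In 14-day cGAS-KO the same genes were also lower on average, but no call was made. Of the 10, 0 passed in cGAS-KO against WT at 14 days with edgeR and 0 with DESeq2, where 0.0303% of all genes tested were called. At an unadjusted p below 0.05, 5 of the 10 were lower, as were 1101 of all 19822 genes tested. The median log2 change was -0.82, against -0.01 for all genes tested. Values ran from -1.34 ± 0.41 for Iigp1 (edgeR adjusted p = 0.286, unadjusted p = 0.00716) to -0.48 ± 0.42 for Gbp2 (adjusted p = 0.704). Gbp7 had the smallest unadjusted p (-0.88 ± 0.24, unadjusted p = 0.00376, adjusted p = 0.254). The WT libraries both lay above the cGAS-KO libraries for 6 genes, Gbp4, Gbp5, Gbp7, Irgm1, Irgm2 and Iigp1, where 20.2% of all genes tested did so in this direction. Microglia markers summed to 2022 and 2147 CPM in cGAS-KO, against 2311 and 2537 CPM in WT, with 0 of 8 called by edgeR or DESeq2 and 1 lower at an unadjusted p below 0.05, and 1 of the 8 monocyte and macrophage markers fell, F13a1, with 1 other, Chil3, at 0 in cGAS-KO replicate 1. DESeq2 called 5 of those 8 lower. T and NK cell markers summed to 20.2 and 41.8 CPM in cGAS-KO, against 34.0 and 28.2 CPM in WT, with 2 of 12 at 0 in cGAS-KO replicate 1 and 0 of 10 called by edgeR or DESeq2, 5 lower and 1 higher at an unadjusted p below 0.05. Their part was not tested.

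Between the 2 knockouts at 14 days, 8 of 10 genes were higher in cGAS-KO than in STING-KO, where 18.2% of all genes tested were called higher. The median log2 change was 1.81, against 0.04 for all genes tested. Iigp1 was higher by 2.56 ± 0.50 (edgeR adjusted p = 0.00283), Igtp by 2.24 ± 0.46 (adjusted p = 0.00397), Gbp2 by 2.15 ± 0.47 (adjusted p = 0.00492) and Irgm1 by 1.94 ± 0.34 (adjusted p = 0.00164). Gbp4 (1.11 ± 0.47, adjusted p = 0.0885) and Gbp6 (1.68 ± 0.65, adjusted p = 0.0661) did not pass. Both cGAS-KO libraries lay above both STING-KO libraries for 9 genes, all but Gbp6, as for 33.3% of all genes tested. The count rests partly on single libraries. It fell to 3 without STING-KO replicate 1, with Irgm1, Igtp and Iigp1 still called, and to 4 without cGAS-KO replicate 2, when Iigp1 stood at 1.68, and it was 10 without cGAS-KO replicate 1. All 8 microglia markers and 2 of the 8 monocyte and macrophage markers were higher in cGAS-KO as well, as were 4 of 10 T and NK cell, 5 of 8 astrocyte and 5 of 8 cortical and hippocampal markers, and their part was not tested.

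At 7 days the direction against WT was the opposite. All 10 genes were higher in cGAS-KO than in WT at 7 days, where 27.8% of all genes tested were called higher. All 10 were also higher in STING-KO than in WT at 7 days, where 26.3% were. The median log2 change was 2.48 in cGAS-KO and 2.10 in STING-KO, against 0.04 and 0.03 for all genes tested, and both comparisons use the same 2 WT libraries. Neither knockout overlapped WT in any of the 10 genes, where 41.9% of all genes tested were apart in this direction in cGAS-KO and 41.7% in STING-KO. In cGAS-KO the changes ran from 1.87 ± 0.48 for Igtp (edgeR adjusted p = 0.00709) to 3.56 ± 0.93 for Gbp6 (adjusted p = 0.00807). Gbp7 had the smallest adjusted p (2.05 ± 0.29, adjusted p = 9.75e-05), and Gbp2 was higher by 3.25 ± 0.53 (adjusted p = 0.000388). In STING-KO they ran from 1.31 ± 0.29 for Gbp7 (adjusted p = 0.00279) to 2.82 ± 0.53 for Gbp2 (adjusted p = 0.00112), and Irgm1 was higher by 2.10 ± 0.35 (adjusted p = 0.000506). The Gbp6 change of 2.72 ± 1.01 in STING-KO was near the threshold (adjusted p = 0.0443) and lost its call when any 1 of 10 of the 12 libraries was left out.

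Single libraries decided some of these calls. Without 7-day WT replicate 2, 7 genes stayed called in cGAS-KO and 5 in STING-KO, with Gbp5, Gbp6 and Igtp lost in both. Without 7-day STING-KO replicate 2, 5 stayed called in STING-KO, and Gbp5 stood at 0.94 in place of 1.64. Without 7-day WT replicate 1 the Gbp6 change became 5.45 in cGAS-KO, since the remaining WT library had 2 counts. Monocyte and macrophage markers summed to 4219 and 4772 CPM in 7-day cGAS-KO and 4574 and 5337 CPM in 7-day STING-KO, against 22.8 and 7.71 CPM in 7-day WT, where Chil3 was at 0 in replicate 2. Of these 8 markers 8 rose in cGAS-KO and 7 in STING-KO. All 8 microglia markers rose in both, and their sum was 3654 and 4114 CPM in cGAS-KO, 4726 and 5319 CPM in STING-KO and 322 and 296 CPM in WT. All 8 choroid plexus markers also rose in both, and their sum was 201 and 405 CPM in cGAS-KO, 356 and 205 CPM in STING-KO and 42.2 and 31.5 CPM in WT. Of 8 endothelial markers 8 rose in cGAS-KO and 7 in STING-KO, of 4 tested neutrophil markers 4 and 3, and of 5 erythrocyte markers 5 in cGAS-KO, while 6 of 8 cortical and hippocampal markers fell in both. What these tissues and cells contribute to the GTPase values was not tested.

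The 2 knockouts did not differ at 7 days in these genes beyond the threshold. Of the 10, 0 were called in cGAS-KO against STING-KO at 7 days by edgeR and 0 by DESeq2, where 0.161% of all genes tested were. At an unadjusted p below 0.05 there was 1, Gbp7 (0.74 ± 0.26, unadjusted p = 0.0157, adjusted p = 0.364). Of all 19822 genes tested, 969 were higher and 789 lower at that threshold, a share near that of the 10 genes. Both cGAS-KO libraries lay above both STING-KO libraries for 5 genes, Gbp4, Gbp6, Gbp7, Irgm2 and Iigp1, as for 19.5% of all genes tested. The other differences lay between -0.03 ± 0.32 for Irgm1 and 0.84 ± 0.67 for Gbp6.

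**Figure D3:**
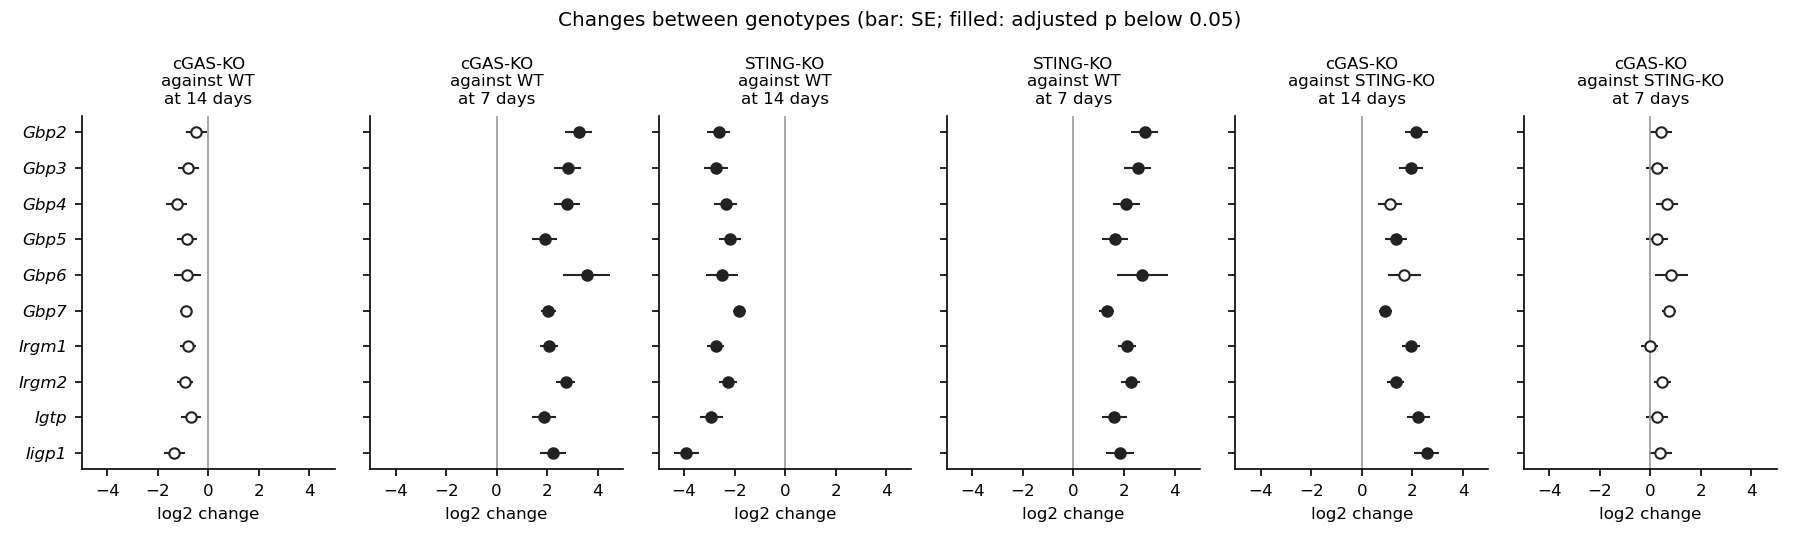
Log2 changes between genotypes with standard errors for the 10 GTPase genes, 1 panel per comparison, with filled points for an adjusted p below 0.05 by edgeR. The cGAS-KO panels against WT show no filled point at 14 days and 10 to the right of 0 at 7 days, and the STING-KO panels show 10 to the left at 14 days and 10 to the right at 7 days.

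The change between the days was then compared within each genotype. In WT all 10 genes rose, being higher at 14 than at 7 days, where 24.1% of all genes tested were called higher, with a median log2 change of 3.64 and 0.07 for all genes tested. The rise ran from 3.27 ± 0.47 for Igtp (edgeR adjusted p = 0.000274) to 5.11 ± 0.84 for Gbp6 (adjusted p = 0.000611). Gbp7, with 3.41 ± 0.28, had the smallest adjusted p (6.52e-06), Iigp1 rose by 4.39 ± 0.51 (adjusted p = 6.65e-05) and Irgm2 by 3.68 ± 0.38 (adjusted p = 2.88e-05). This count was 10 whichever of the 12 libraries was left out, and no 14-day WT library overlapped a 7-day one in any of the 10 genes, as for 40.2% of all genes tested. All 8 microglia markers, 6 of 8 monocyte and macrophage markers and 10 of 10 T and NK cell markers rose as well, with 4 or 5 of the 12 listed T and NK cell markers at 0 in the 7-day WT libraries, and 8 of 8 striatal projection neuron, 7 of 8 astrocyte, 6 of 8 endothelial, 4 of 4 neutrophil and 4 of 5 erythrocyte markers rose, while 6 of 8 cortical and hippocampal markers fell. Their part was not tested.

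In cGAS-KO 0 of the 10 GTPase genes were called between 14 and 7 days by edgeR or by DESeq2, where 30.4% of all genes tested were called. At an unadjusted p below 0.05 there were also 0 of the 10, while 3818 of all 19822 genes tested were higher and 4449 lower. The median log2 change of the 10 was 0.62. Log2 changes ran from -0.47 ± 0.42 for Gbp4 to 0.88 ± 0.42 for Gbp5 (adjusted p = 0.137). Both 14-day libraries lay above both 7-day libraries for 5 genes, Gbp3, Gbp5, Gbp7, Irgm1 and Igtp, as for 32.7% of all genes tested. Without 14-day cGAS-KO replicate 1, Iigp1 alone passed (1.35, adjusted p = 0.0283), and with only the cGAS-KO libraries fitted Gbp5 alone did (adjusted p = 0.0414). Over the same interval 7 of 8 monocyte and macrophage markers fell in cGAS-KO, with a median log2 change of -3.91, to 393 and 366 CPM in sum at 14 days, against 4219 and 4772 CPM at 7 days. Microglia markers fell in 3 of 8 and rose in 1, 8 of 8 choroid plexus and 5 of 8 endothelial markers fell, and 7 of 8 striatal projection neuron markers rose. Of 10 tested T and NK cell markers 3 rose, as did 4 of 8 astrocyte markers, with 0 lower in either list. Of 4 tested neutrophil markers 2 fell, as did 3 of 5 erythrocyte markers, with 0 higher in either list. Of 8 cortical and hippocampal markers 1 rose and 1 fell. The GTPase transcripts did not pass the test where some marker lists fell and others rose, and the difference between the lists was not tested.

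In STING-KO 4 genes fell between the days, Irgm1 (-1.42 ± 0.34, adjusted p = 0.00428), Igtp (-1.26 ± 0.48, adjusted p = 0.0416), Gbp2 (-1.23 ± 0.47, adjusted p = 0.0444) and Iigp1 (-1.35 ± 0.53, adjusted p = 0.0477), where 29.5% of all genes tested were called lower at 14 days. That share is near the share of these genes. The median log2 change was -0.94, against -0.04 for all genes tested. Gbp7 (0.29 ± 0.27), Gbp6 (-0.12 ± 0.74) and Gbp5 (-0.22 ± 0.46) overlapped between the days, and for the other 7 genes both 14-day libraries were lower, as for 40.3% of all genes tested. Irgm1 passed under every alternative run, and the other calls did not. Together the calls numbered 1 without 14-day STING-KO replicate 1 or 7-day STING-KO replicate 2, and 2 without 7-day STING-KO replicate 1 or any 1 of the 7-day cGAS-KO or WT libraries. In STING-KO 7 of 8 microglia markers and 6 of 8 monocyte and macrophage markers fell too, as did 7 of 8 choroid plexus and 5 of 8 endothelial markers, while 8 of 8 striatal projection neuron markers rose, and their part was not tested.

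**Figure D4:**
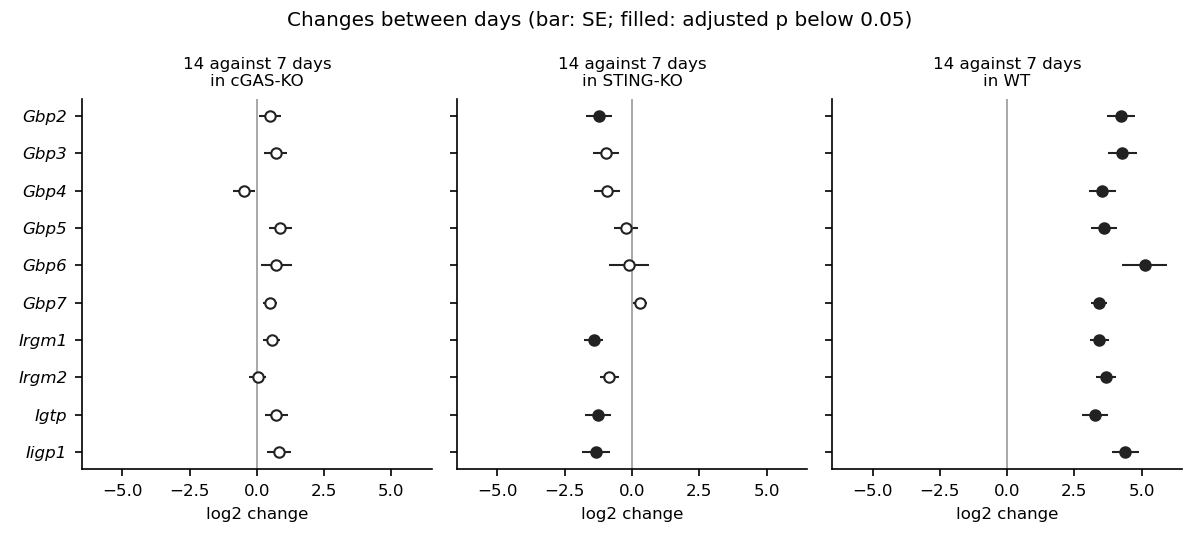
Log2 changes of 14 against 7 days with standard errors for the 10 GTPase genes in cGAS-KO, STING-KO and WT, with filled points for an adjusted p below 0.05 by edgeR. All 10 points are filled and right of 0 in WT, none is filled in cGAS-KO, and 4 are filled and left of 0 in STING-KO.

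The knockout effects themselves differed between the days. The cGAS-KO effect against WT was lower at 14 than at 7 days for all 10 genes, where 21% of all genes tested were called so, with a median difference of -3.58 on the log2 scale. It ran from -2.54 ± 0.63 for Igtp (edgeR adjusted p = 0.00831) to -4.38 ± 1.09 for Gbp6 (adjusted p = 0.00859). Without 7-day WT replicate 2 the Gbp6 difference had an adjusted p of 0.0557, and the other 9 genes passed. The STING-KO effect was lower at 14 days for all 10 genes, where 27.6% of all genes tested were, with a median of -4.69. It ran from -3.12 ± 0.39 for Gbp7 (adjusted p = 3.63e-05) to -5.74 ± 0.73 for Iigp1 (adjusted p = 6.02e-05). Both differences contain the change of the WT libraries between the days.

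Replicates differed in these genes as a set on both days. In 14-day cGAS-KO replicate 2 was higher than replicate 1 for 10 of 10 genes, by 1.30-fold for Gbp7 to 3.67-fold for Gbp6, where 50.73% of all genes were. In 14-day STING-KO replicate 2 was higher for 10 of 10, by 1.31-fold to 2.67-fold, and in 14-day WT replicate 1 was higher for 10 of 10, by 1.13-fold to 2.08-fold. For all genes the shares in those directions were 48.84% and 51.09%. At 7 days replicate 1 was higher for 9 genes in cGAS-KO, replicate 2 for 9 in STING-KO and replicate 1 for 10 in WT, there by 1.01-fold to 7.13-fold, with shares over all genes of 50.92%, 49.92% and 47.59%. The 10 genes moved together within groups, so their values are not independent, and 10 calls are not 10 separate observations.

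Of 19 further GBP, IRG and very large inducible GTPases listed with the 10, 17 were tested. In 14-day STING-KO 14 of the 17 fell against WT, where 17.4% of all genes tested were called lower, with a median log2 change of -2.76. Gm5431 had 0.48 and 2.02 CPM in the STING-KO libraries, against 15.4 and 13.3 CPM in those of WT (-3.54 ± 0.43, edgeR adjusted p = 0.000102). Ifi47 had 2.40 and 3.58 CPM under STING-KO and 14.8 and 12.8 CPM under WT (-2.21 ± 0.43, adjusted p = 0.00246), and Gbp9 had 7.07 and 13.3 CPM under STING-KO and 45.0 and 32.8 CPM under WT (-1.94 ± 0.38, adjusted p = 0.00305). Exceptions were Gbp11 (-0.36 ± 0.44), 9930111J21Rik1 (-1.20 ± 0.53, adjusted p = 0.106) and Irgq (0.39 ± 0.26). In 14-day cGAS-KO 0 of the 17 were called against WT by edgeR or DESeq2, and 10 were lower at an unadjusted p below 0.05. So were 1101 of all 19822 genes tested. At 7 days 15 rose in cGAS-KO and 9 in STING-KO by edgeR, and 15 and 11 by DESeq2. In WT 16 rose between the days. Of all genes tested 27.8% were called higher at 7 days in cGAS-KO, 26.3% in STING-KO and 24.1% between the days in WT. Irgq, a divergent relative of the IRGs, went the other way at 7 days and was called lower in both knockouts. It had 43.2 and 63.7 CPM in 7-day cGAS-KO and 64.8 and 46.5 CPM in 7-day STING-KO, against 95.9 and 120 CPM in 7-day WT (-1.01 ± 0.27, adjusted p = 0.00781, and -0.96 ± 0.26, adjusted p = 0.0109). Gvin1 shared 95.0% of its 150-base stretches with Gm4070, Tgtp1 62.5% with Tgtp2, 9930111J21Rik1 63.8% with 9930111J21Rik2 and Gbp10 63.2% with Gm43302, so the split of reads among these is uncertain. Gbp2b and Irgc1 had too few counts to be tested.

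Of interferon genes only Ifng and Ifnb1 were listed. Ifng reached 0.121 CPM and Ifnb1 0.142 CPM at most, and neither was tested. Interferon-responsive transcripts outside the families were then set beside the GTPases. In 14-day STING-KO 12 of 13 tested interferon-gamma targets fell against WT, with Psmb8, a subunit of the immunoproteasome, at 1.62 and 3.45 CPM under STING-KO and 28.5 and 20.9 CPM under WT (-3.29 ± 0.33, adjusted p = 5.54e-05). All 9 tested genes of type I interferon signalling fell, among them Stat2 at 33.4 and 40.7 CPM under STING-KO and 142 and 93.7 CPM under WT (-1.67 ± 0.24, adjusted p = 0.000389), and Usp18, a brake on the type I receptor, at 1.20 and 3.64 CPM under STING-KO and 42.8 and 24.6 CPM under WT (-3.81 ± 0.57, adjusted p = 0.000599). Of 9 tested genes of interferon-gamma signalling 6 fell and 1 rose by edgeR, while DESeq2 called 7 lower and 2 higher. Of all genes tested 17.4% were called lower by edgeR in STING-KO against WT at 14 days. Irf8, a factor of myeloid cells, fell by 2.46 on the log2 scale (SE 0.29, adjusted p = 0.000176), and Irf1, an interferon-induced transcription factor, fell by 2.31 (SE 0.31, adjusted p = 0.000267). At 7 days 9 of 9 type I signalling genes rose in both knockouts against WT, and 11 of 13 interferon-gamma targets rose in cGAS-KO and 12 in STING-KO. Of all genes tested 27.8% were called higher in cGAS-KO and 26.3% in STING-KO.

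Between 14 and 7 days in cGAS-KO, where 0 of the 10 GTPases were called, some genes of these lists fell. Of 13 interferon-gamma targets 6 fell and 2 rose, with H2-Ab1, a class II antigen-presenting chain, at 9.65 and 18.1 CPM at 14 days, against 91.8 and 55.7 CPM at 7 days (-2.41 ± 0.48, adjusted p = 0.00355). Of 9 interferon-gamma signalling genes 6 fell and 1 rose, among them the receptor chains Ifngr2 (-0.93 ± 0.20, adjusted p = 0.00573) and Ifngr1 (-0.66 ± 0.15, adjusted p = 0.006). Of 9 type I signalling genes 3 fell, Ifnar2 (-1.20 ± 0.15, adjusted p = 0.000179), Ifnar1 (-0.51 ± 0.12, adjusted p = 0.00939) and Tyk2 (-0.53 ± 0.15, adjusted p = 0.0241), all of them parts of the receptor complex. Another 1 of the 9 was higher at an unadjusted p below 0.05 by edgeR, and DESeq2 called 1 higher and 3 lower. Of all genes tested 30.4% were called between these days in cGAS-KO, a share near that of the type I genes. Whether these lists differ from the GTPases was not tested.

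**Figure D5:**
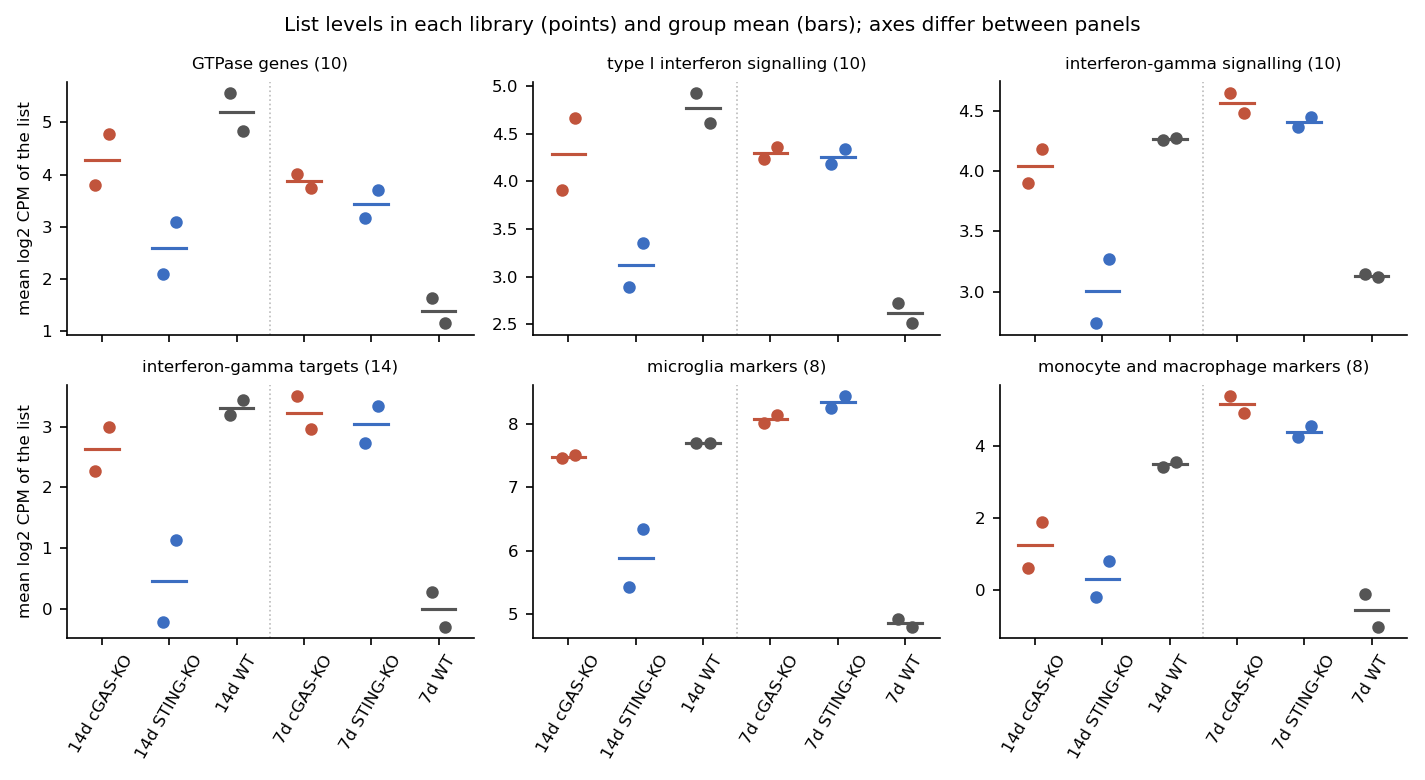
Mean log2 CPM (vertical axes, different between panels) of 6 gene lists in each library (points) and as group mean (bars), for cGAS-KO (red), STING-KO (blue) and WT (grey) at 14 and 7 days. The GTPase and type I interferon signalling panels peak in 14-day WT, and the monocyte and macrophage panel stands at 4.25 to 5.39 in the 7-day knockouts and at 3.58 at most elsewhere.

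The machinery that the GTPases are known to work with was listed too. Among 8 genes of the non-canonical inflammasome and AIM2, which GBPs help to activate in mouse macrophages, 7 fell in 14-day STING-KO against WT. Of all genes tested 17.4% were called lower there. Casp1 had 1.38 and 2.02 CPM in the STING-KO libraries, against 11.96 and 11.1 CPM in those of WT (-2.77 ± 0.26, adjusted p = 4.83e-05), and Casp4, the sensor of cytosolic lipopolysaccharide, had 0.539 and 1.17 CPM under STING-KO and 9.69 and 7.51 CPM under WT (-3.34 ± 0.36, adjusted p = 8.51e-05). Gsdmd, the pore protein they cleave, changed by -2.38 ± 0.24 (adjusted p = 5.53e-05). At 7 days 7 of the 8 rose in cGAS-KO and 6 in STING-KO against WT, where 27.8% and 26.3% of all genes tested were called higher. In 14-day cGAS-KO 0 were called by edgeR or DESeq2, with 3 lower at an unadjusted p below 0.05, as were 1101 of all 19822 genes tested. The 14 genes of LC3 conjugation and of GTPase targeting to vacuoles did not move one way. In 14-day STING-KO 5 rose and 3 fell, with a median of -0.05. Trim21, an interferon-induced ubiquitin ligase, was among those that fell, with 3.72 and 3.19 CPM in the STING-KO libraries, against 16.5 and 12.6 CPM in those of WT (-2.07 ± 0.24, adjusted p = 0.000143).

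The genes whose log2 CPM followed the mean of the 10 GTPase z-scores most closely over the 12 libraries were ranked by Pearson's r, as a description without a test, since the libraries share groups. Oasl2 came first (r = 0.993), followed by Rnf213 (0.988), Ifih1 (0.986), Trim30d (0.986), Rtp4 (0.986), Ddx58 (0.986), Ddx60 (0.985), Phf11d (0.985), Samd9l (0.984) and Mx1 (0.981). Oasl2 had 40.2 and 90.5 CPM in 14-day cGAS-KO, 6.29 and 19.5 CPM in 14-day STING-KO and 190 and 112 CPM in 14-day WT. Its 7-day values were 38.3 and 34.9 CPM in cGAS-KO, 29.2 and 33.6 CPM in STING-KO and 4.93 and 2.45 CPM in WT. The order of its groups by mean was that of most of the GTPases. The GTPases themselves, which make up the score, had r of 0.95 for Gbp7 to 0.993 for Gbp3. For comparison r was 0.595 for Irf1, 0.678 for Lyz2 and 0.612 for C1qa, which were chosen here after earlier values were known.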

How the data were processed

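The authors deposited raw counts per Ensembl gene, 1 column per library. Per the labels' protocols, polyA+ RNA was sequenced as paired 150-base reads on an Illumina HiSeq. Per the submitters' processing notes, HISAT2, featureCounts and mm10 were used. Versions, annotation release, strand setting and the handling of multi-mapping reads are not given in the sources used here, so reads of overlapping or antisense genes could not be assigned. Symbols and coordinates come from GENCODE M21 (GRCm38, which is mm10), which named 54409 of 54532 IDs, and promoters from RefSeq (GRCm38.p6).

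CPM used library totals times TMM factors. Floors of 3 counts cover counting error only. All 12 libraries entered 1 edgeR 4.0.16 fit (R 4.3.3) of 6 groups with 6 residual degrees of freedom, on 19822 genes kept by a minimum count of 10 and total of 15. Quasi-likelihood p-values were Benjamini-Hochberg adjusted over those genes in each of 11 contrasts (threshold 0.05), and the code was tested on simulated data. The SE was derived from the log2 change and its F statistic. Alternatives were DESeq2 1.42.0, DESeq2 size factors, unfiltered genes, a filter of 1 CPM and 10 counts, the libraries compared alone, a replicate block, the legacy fit, a fit without 7-day WT and 14-day STING-KO, and leaving out each library. Genes named beyond the 10 GTPases are their tested relatives, Cgas and Tmem173, at most 3 per list by adjusted p in a contrast (2 by p where none was called), markers at 0, and the 10 genes most like the mean GTPase z-score (log2 CPM, prior count 2). The genes and lists were chosen with earlier results of these data known. Plots were made by matplotlib 3.10.9 (python 3.11.15).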

Additional observations from a re-analysis of the deposited data

Results flagged for a closer look

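For each of the 10 GTPase genes the effect of a knockout against WT differed between 14 and 7 days, tested as an interaction in the edgeR fit, with adjusted p of 0.00859 at most for cGAS-KO and 0.0032 at most for STING-KO. The differences are given as the effect at 14 days minus that at 7 days, on the log2 scale. For cGAS-KO the IRG regulators had -2.88 (Irgm1), -3.65 (Irgm2) and -2.54 (Igtp), and the effector Iigp1 had -3.57. The chromosome 3 GBPs had -3.73 (Gbp2), -3.59 (Gbp3), -2.72 (Gbp5) and -2.93 (Gbp7), and those of chromosome 5 had -4.01 (Gbp4) and -4.38 (Gbp6). For STING-KO the same genes in that order had -4.85 (Irgm1), -4.51 (Irgm2), -4.53 (Igtp), -5.74 (Iigp1), -5.45 (Gbp2), -5.26 (Gbp3), -3.82 (Gbp5), -3.12 (Gbp7), -4.45 (Gbp4) and -5.22 (Gbp6). Both sets use the same 4 WT libraries, and WT changed between the days by 3.27 to 5.11 in these genes.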

How the results depend on the processing

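Of 2120 changes of the 10 genes recomputed under the alternatives, 2028 kept their direction and side of the threshold, 69 lost the call, 10 gained it and 13 changed sign, none of those called either way. With no filter 6 genes were called in STING-KO against WT at 7 days and 1 in STING-KO between days. At 14 days, having no filter left 9 called in STING-KO against WT and 6 between the knockouts. With only the libraries compared, 2 were called in STING-KO between days and 1 in cGAS-KO between days. Leaving out each library gave 5 to 10 genes in STING-KO against WT at 7 days, 7 to 10 in cGAS-KO, 3 to 10 between the knockouts at 14 days, 0 to 1 in cGAS-KO between days and 1 to 5 in STING-KO. Signs turned in cGAS-KO between days for Gbp2, Gbp6, Irgm2 and Iigp1 without 14-day cGAS-KO replicate 2, where the log2 changes were lowest, and over all single libraries left out they ran from -0.121 to 0.896 for Gbp2, -0.505 to 1.36 for Gbp6, -0.449 to 0.363 for Irgm2 and -0.078 to 1.351 for Iigp1. Irgm2 also turned without 7-day cGAS-KO replicate 1 (-0.1). In STING-KO between days Gbp5 (-0.859 to 0.431) and Gbp6 (-0.917 to 0.417) turned without 14-day replicate 1 or 7-day replicate 2, and Gbp7 (-0.028 to 0.693) without 7-day replicate 1. Between the knockouts at 7 days Irgm1 (-0.247 to 0.216) turned without cGAS-KO replicate 2 or STING-KO replicate 2, and Gbp5 (-0.192 to 0.909) without STING-KO replicate 1. Over all genes, cGAS-KO against WT at 14 days had 6 calls, 151 with DESeq2 and 0 to 18 with a library left out, and the knockouts at 7 days had 32, 2 with only those libraries, 263 with DESeq2 and 0 to 202 with a library left out. With only the libraries compared, 4271 in place of 6717 genes were called in STING-KO against WT at 14 days and 4614 in place of 7112 between the knockouts at 14 days. With 1 library left out the lone one is assumed to vary like the other groups, and counts over 1.5 times apart were 4203 in STING-KO against WT at 14 days (without 14-day WT replicate 1), 4632 between the knockouts at 14 days (without cGAS-KO replicate 2, and similarly without STING-KO replicate 1), 5579 in place of 8693 between days in WT (without 7-day replicate 2) and 2968 in place of 6022 in cGAS-KO (without 7-day replicate 1, and similarly without 14-day replicate 1). With 7-day WT and 14-day STING-KO left out of the fit, 0 of the 10 genes were called in each of the 3 contrasts that use neither, as in the full fit. Leaving out groups that a contrast does not use mainly alters its estimate of spread, so this fit cannot test the labels. The labels state no pairing of samples by replicate number. Over 15 group pairs the correlation of deviations ran from -0.0923 to 0.196, over 0.1 in 2, which cannot exclude pairing. With the replicate block 9 of 10 genes were called in STING-KO against WT at 7 days, Gbp6 being lost. In STING-KO between days the block lost Iigp1 (adjusted p = 0.0562) and gained Irgm2 (adjusted p = 0.0483), so 4 were called again, and it changed no other call of these genes. The cause of these shifts was not tested.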
